A study of Mus musculus with 6 samples.

Results

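The genes described here are 35 named genes of phagocytic, lysosomal and lipid-handling myeloid cells, taken by symbol from a table of 56748 genes, and all 35 were found. They were measured in 6 RNA-seq libraries of infarct cortex (male C57 mice, wild type), 3 from mice given PLEA nanoparticles and 3 from mice given saline, at day 3. All mice had a light-induced clot in vessels of the left hemisphere, made with an intravenous agent at 100 mg/kg and a 532 nm laser of 250 mW and 1.5 mm width for 5 minutes. PLEA or saline (100 µL) went into the tail vein 2 hours later, brains were perfused with cold buffer before freezing, and the labels neither explain PLEA nor name the agent. Unlesioned tissue was not analysed here, so every comparison is between treatments. The labels do not say that replicates of a group are separate animals, and the p-values below therefore speak only of library-to-library spread, which may be technical.

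Phagocytes that clear dying cells and myelin take the debris into lysosomes, where cathepsins and glycosidases digest it. The cholesterol that is set free leaves the cell through ABC transporters and apolipoprotein E, or is stored as esters in lipid droplets. Microglia and infiltrating macrophages in damaged brain are known for a state in which Spp1, Gpnmb, Lpl, Cst7, Clec7a, Itgax and Lgals3 are raised. Several of the 35 genes are also known to be expressed outside myeloid cells, for example Apoe in astrocytes, Cd9 in oligodendrocytes, and Ctsb, Ctsd, Lamp1 and Abcg1 in many cell types including neurons.

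The transcription factor TFEB is known to drive lysosomal genes through promoter elements built on CACGTG, and PU.1, a factor of myeloid cells, binds elements built on GAGGAA. Promoters of 29 of the 35 genes were in the RefSeq table (build GRCm38.p6), and no entry was matched for Lpl, Ctsb, Fabp5, Abcg1, Msr1 and Arg1. The 4 below are shown because they hold these letters and belong to the genes whose library pattern is described below. Each is the stretch that ends at the base before the transcript start, read along the gene, with each match on either strand in capitals. Capitals mark CACGTG for the lysosomal genes Lamp1, Ctsd and Lgmn, and GAGGAA or its reverse complement TTCCTC for the mannose receptor gene Mrc1.
Lamp1 (chr8:13159041-13159160, plus strand): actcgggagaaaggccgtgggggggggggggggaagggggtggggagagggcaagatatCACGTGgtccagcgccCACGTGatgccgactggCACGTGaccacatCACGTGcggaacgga
Ctsd (chr7:142387828-142387947, minus strand): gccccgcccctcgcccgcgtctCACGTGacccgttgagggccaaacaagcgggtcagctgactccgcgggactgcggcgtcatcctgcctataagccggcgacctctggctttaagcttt
Lgmn (chr12:102439093-102439212, minus strand): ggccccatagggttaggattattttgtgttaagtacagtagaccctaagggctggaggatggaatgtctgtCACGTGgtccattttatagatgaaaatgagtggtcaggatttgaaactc
Mrc1 (chr2:14229214-14229413, plus strand): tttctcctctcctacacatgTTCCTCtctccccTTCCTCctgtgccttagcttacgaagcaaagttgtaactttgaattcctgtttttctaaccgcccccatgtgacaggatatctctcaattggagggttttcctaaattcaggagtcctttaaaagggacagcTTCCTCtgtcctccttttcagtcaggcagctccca

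Lamp1 held CACGTG 4 times within 120 bases of its start, and Ctsd and Lgmn held it once each in the stretch shown. Over the 250 bases before the start, CACGTG was present for 5 of 29 matched genes (Abca1, Ctsd, Ctsl, Lamp1 and Lgmn), against 6.86% of 27025 genes in the table. The longer TCACGTG, which contains it, was present for 3 of 29 (Ctsd, Lamp1 and Lgmn), against 3.58% of genes. GAGGAA was present for 10 of 29, against 25.9% of genes. These matches describe the letters in the window and say nothing of whether a factor was bound in these mice.

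The main feature of the 35 genes was a difference between libraries of the same treatment. Of the 31 genes that passed the filter on low counts, 27 had their highest level in Saline 1, 23 had PLEA 1 as the next highest, and 23 had their lowest level in PLEA 2. Among all 17584 genes tested, 21.3% were highest in Saline 1 and 19.1% were lowest in PLEA 2. Saline 1 first and PLEA 1 second was the order for 23 of the 31 genes, against 6.65% of all genes tested. Levels are given below as CPM, the count scaled by library size and TMM factor, or as TPM, which also divides by gene length, where TPM is named.

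**Figure D1:**
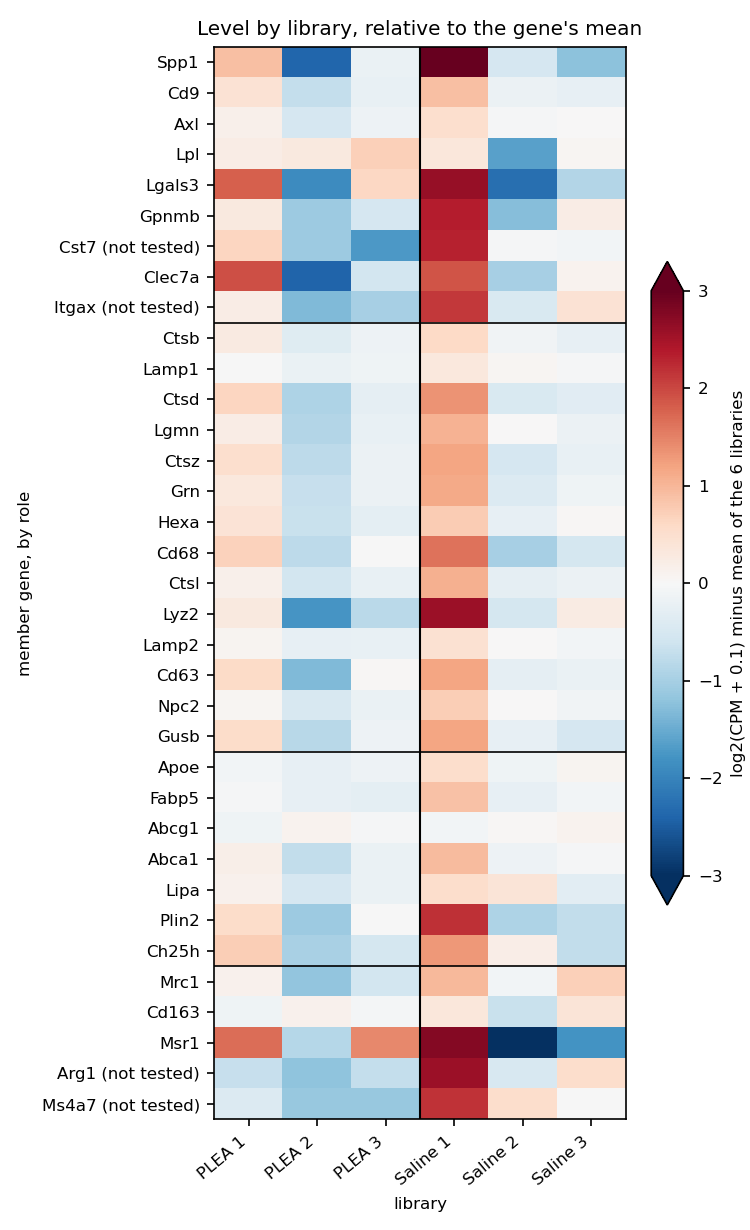
Level of each of the 35 genes in each library, as log2(CPM + 0.1) minus the gene's mean over the 6 libraries, with rows grouped by role (phagocyte state, lysosome, lipid handling, scavenger) and the PLEA libraries left of the black line. The Saline 1 column is the highest for most rows and PLEA 2 the lowest, while Abcg1, Cd163, Clec7a and Lpl are highest in another library. Of the other rows, Gpnmb, Cd68, Lgals3 and Msr1 are lowest in Saline 2, and Fabp5, Cst7 and Ms4a7 in PLEA 3.

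The spread was wide within each role. The ratio of Saline 1 to the mean of Saline 2 and 3 had a median of 2.20 over the 31 genes, and exceeded 2 for 19 of them, against 5.60% of all genes tested. It ran from 1.42 to 18.7 over 7 tested phagocyte-state genes, from 1.23 to 6.38 over 14 lysosomal, from 0.893 to 8.26 over 7 lipid-handling and from 1.30 to 41.0 over 3 scavenger-receptor genes, so the roles overlapped. Within the PLEA group the ratio of PLEA 1 to the mean of PLEA 2 and 3 was above 1 for 28 of the 31 genes, with a median of 1.83. The same ratio had a median of 0.992 over all genes tested.

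Myeloid marker genes varied in the same order. The 10 pan-myeloid markers (among them Csf1r, the receptor for the growth factor that keeps macrophages alive, and Ptprc, which encodes CD45) summed to 231, 81.7 and 150 CPM in PLEA 1 to 3, and to 483, 146 and 179 CPM in Saline 1 to 3. The 11 homeostatic microglia markers summed to values from 120 to 419 CPM in PLEA and from 253 to 854 CPM in saline. Neither list separated the groups, and Saline 1 was the highest library in both. In these bulk samples fewer cells of a type and less RNA per cell cannot be told apart. Total counts were 16810448 to 17516434 per library and did not set these libraries apart.

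Other cell types were checked through their markers. The 10 neuronal markers summed to between 9133 and 10950 CPM in PLEA and between 9105 and 10554 CPM in saline, so cortical neuron RNA was present in every library. The 10 astrocyte markers were at 3627 to 4750 CPM in PLEA and at 4490 to 7351 CPM in saline, again highest in Saline 1. All 10 had negative fold changes, against 51.0% of all genes tested. So did 8 of 10 oligodendrocyte, 7 of 10 endothelial and 6 of 10 neuronal markers. The oligodendrocyte markers summed to 3171 to 4214 CPM in PLEA and to 4007 to 6031 CPM in saline. The endothelial markers summed to 250 to 310 CPM in PLEA and to 275 to 432 CPM in saline, highest in Saline 1. The 9 markers of the meninges, the membranes around the brain, were at 52.6 to 70.0 CPM in PLEA and at 119 to 158 CPM in saline, without overlap. The part of these cell types in the results below was not tested.

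Most markers of blood-derived cells were low. Of 10 monocyte and macrophage markers 2 passed the filter. The list summed to 105 to 128 CPM in PLEA and to 135 to 290 CPM in saline, without overlap. Yet 7 of the 10 had 0 counts in some library, and the 2 tested genes had log2 fold changes of -0.97 and 0.11. The sum therefore does not speak for the whole list, and which cells gave its reads was not tested. Of 10 neutrophil markers 1 passed the filter, Csf3r, which microglia also express. Ly6g, a surface protein of neutrophils, had 0 counts in each PLEA library, and 0, 0 and 2 counts in Saline 1 to 3. Ccr2, the receptor that brings monocytes into tissue, had 7, 3 and 3 counts in PLEA 1 to 3 and 106, 8 and 15 in Saline 1 to 3. Saline 1 therefore also held the most Ccr2 reads. Ccr2 and Ly6g were picked after their values were seen, so they do not speak for their lists. The 10 neutrophil markers summed to 8.61, 3.17 and 6.20 CPM in PLEA 1 to 3. In Saline 1 to 3 they summed to 23.4, 7.51 and 21.7 CPM, with Saline 3 close to Saline 1. The part of such cells in the values below was not tested.

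**Figure D2:**
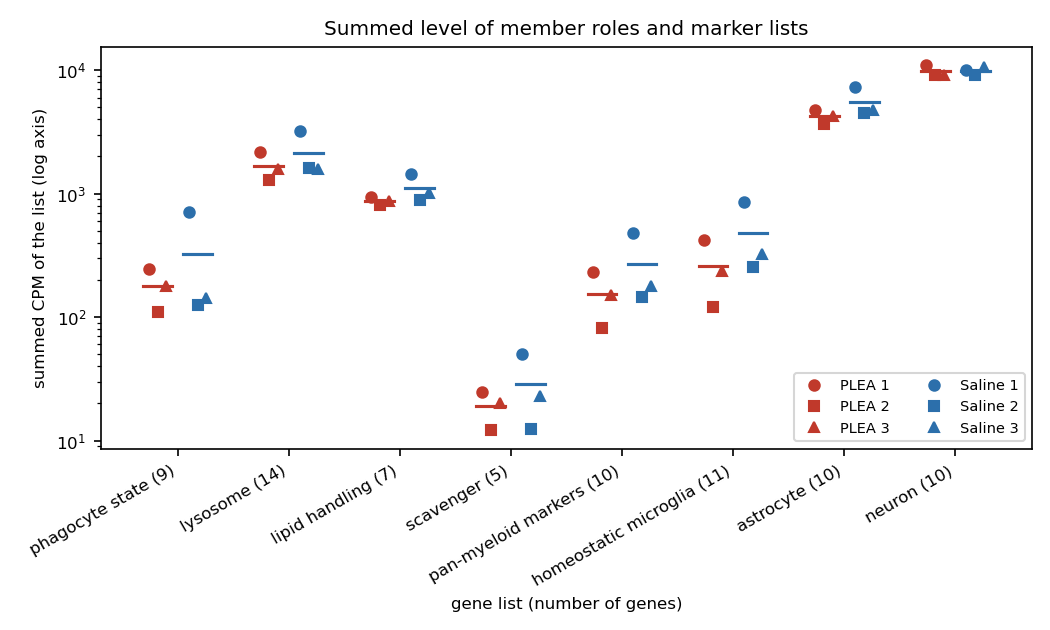
Summed CPM (log axis) of the 4 role groups and of 4 marker lists, with red points for PLEA and blue for saline, a symbol for each replicate number and a bar for the group mean. Saline 1 (blue circle) is the highest point in each list except the neuronal one, and the groups overlap in every list shown.

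No gene of the 35 passed the test between PLEA and saline. With edgeR's quasi-likelihood test adjusted over 17584 genes, 0 of 31 tested genes were called higher and 0 lower, and the same test called 0.0% of all genes in either direction. The smallest adjusted p was 0.818. Before adjustment 0 were higher and 2 lower at p under 0.05 (Mrc1 and Lyz2), against 2.28% higher and 3.58% lower among all genes tested. DESeq2 called 0 of the 31 in either direction (0.0171% of all genes higher and 0.205% lower), and limma voom called 0 (0.0% of all genes in either direction). For 0 of the 31 genes were the PLEA libraries all above or all below the saline libraries, whereas 5.16% of all genes tested were higher and 5.54% lower without overlap.

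The direction was nonetheless shared. A negative log2 fold change was found for 30 of the 31 genes, against 51.0% of all genes tested, and the median was -0.42, against -0.0051 over all genes. Genes that follow the same libraries give the same sign together, so this count does not stand for 30 separate observations. Medians were -0.36 for 7 phagocyte-state, -0.44 for 14 lysosomal, -0.46 for 7 lipid-handling and -0.15 for 3 scavenger-receptor genes. Without Saline 1 these medians were 0.81, 0.086, -0.081 and 0.030 in the same order, and the median of the 31 was 0.049. The sign then turned for 17 of the 31 genes, 8 of them lysosomal, and 13 were negative. A further 11 kept a sign but shrank by over 1.5 times, among them Axl at -0.12, Lamp1 at -0.11, Lamp2 at -0.078 and Lipa at -0.24. Mrc1 changed by less than that, to -0.79.

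**Figure D3:**
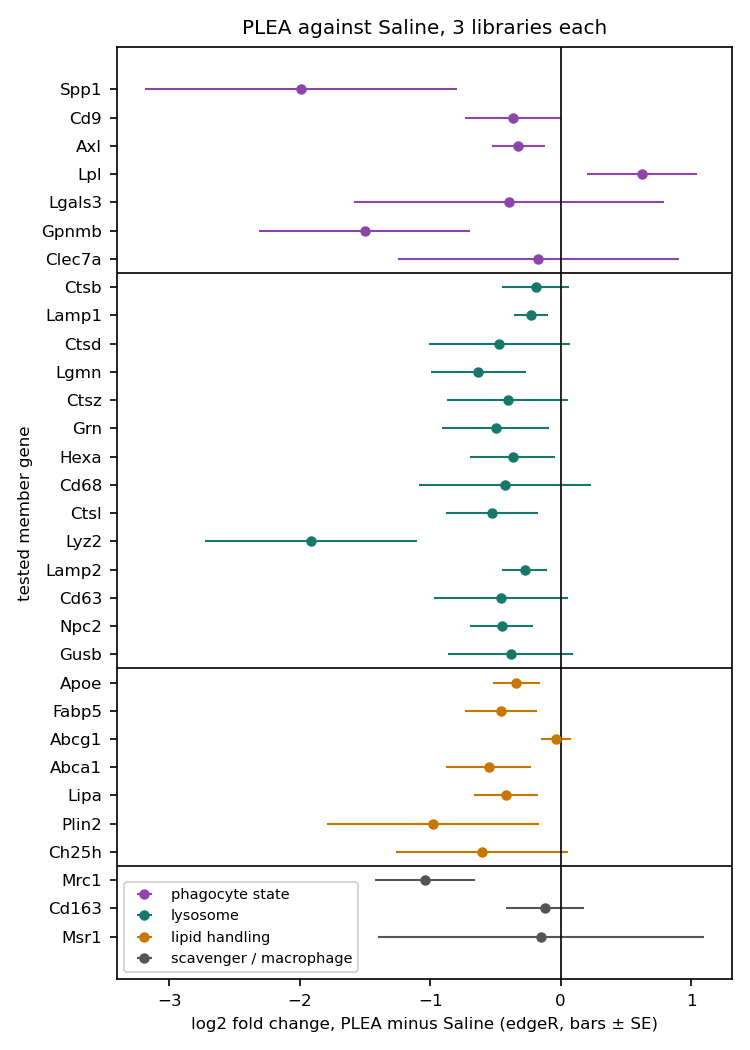
Log2 fold change of PLEA over saline for the 31 tested genes (edgeR, 3 libraries in each group), coloured by role, with bars of 1 SE. All points but Lpl lie below 0, and the widest bars belong to Spp1, Lgals3, Clec7a and Msr1.

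Among the genes of the phagocyte state, Spp1, which encodes the secreted phosphoprotein osteopontin, had the largest spread in CPM. It was at 84.7, 8.61 and 39.5 CPM in PLEA 1 to 3, and at 477, 31.8 and 19.1 CPM in Saline 1 to 3. A single saline library was thus far above the rest, and the other saline libraries lay within the PLEA range. The log2 fold change was -1.99 (SE 1.20, adjusted p = 0.827 in edgeR), and without Saline 1 it was 0.81. Gpnmb, a transmembrane glycoprotein of lipid-laden macrophages, was at 6.07, 2.27 and 3.47 CPM in PLEA and at 25.8, 1.97 and 5.72 CPM in saline. Here too Saline 1 was alone above the PLEA libraries, and the log2 fold change of -1.50 (SE 0.81, adjusted p = 0.818 in edgeR) was 0.049 without it.

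Lpl, the lipase that frees fatty acids from lipoproteins, was the exception in sign. It was at 41.1, 42.8 and 57.6 CPM in PLEA 1 to 3, and at 44.3, 11.2 and 36.4 CPM in Saline 1 to 3. The low library was Saline 2, and Saline 1 lay within the PLEA range, so Lpl did not follow the order of the myeloid markers. Its log2 fold change was 0.62 (SE 0.42, adjusted p = 0.842 in edgeR), 0.22 without Saline 2 and 1.0 without Saline 1. Neurons are also known to express Lpl, and the source of its reads was not tested.

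Lgals3, the carbohydrate-binding galectin-3 that marks damaged lysosomes, was at 9.30, 0.623 and 4.02 CPM in PLEA, and at 16.5, 0.462 and 1.35 CPM in saline. Clec7a, the receptor dectin-1 for fungal glucans, was at 4.22, 0.113 and 0.671 CPM in PLEA and at 4.05, 0.462 and 1.11 CPM in saline. Both were high in PLEA 1 and Saline 1 and low in PLEA 2 and Saline 2, so replicates of the same treatment differed more than the group means. Their log2 fold changes were -0.39 (SE 1.19) for Lgals3 and -0.17 (SE 1.08) for Clec7a. For Lgals3 limma voom gave 0.37, so the sign depended on the tool.

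Axl, a receptor tyrosine kinase for apoptotic cells, and Cd9, a tetraspanin, varied less. Axl averaged 43.2 ± 9.50 CPM in PLEA and 54.1 ± 11.7 CPM in saline (SD, n = 3 each), with a log2 fold change of -0.32 (SE 0.20). Cd9 averaged 33.1 ± 13.3 CPM in PLEA and 42.6 ± 20.7 CPM in saline (SD, n = 3 each), with -0.36 (SE 0.37). Cst7, which encodes the cathepsin inhibitor cystatin F, and Itgax, the integrin subunit CD11c, did not pass the filter. Cst7 had 17, 4 and 2 counts in PLEA 1 to 3 and 57, 10 and 9 in Saline 1 to 3, and Itgax had 9, 2 and 3 in PLEA and 38, 5 and 10 in saline.

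All 14 lysosomal genes were tested, and all 14 had negative log2 fold changes that missed the threshold. Their summed level was 2184, 1277 and 1582 CPM in PLEA 1 to 3 and 3211, 1624 and 1575 CPM in Saline 1 to 3. The means of 1681 ± 462 CPM in PLEA and 2137 ± 931 CPM in saline (SD, n = 3 each) gave an exact two-sided permutation p of 0.6, or 0.75 adjusted over 5 sums, where 0.1 is the smallest that 3 against 3 libraries allow. Without Saline 1 the PLEA mean was 81.7 CPM above the saline mean.

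Ctsb and Ctsd, a cysteine and an aspartic protease of the lysosome, were the most abundant lysosomal proteases per length. Ctsb averaged 442 ± 97.7 TPM in PLEA and 472 ± 144 TPM in saline, and Ctsd averaged 358 ± 192 TPM in PLEA and 459 ± 336 TPM in saline (SD, n = 3 each). On the CPM scale Ctsd was at 323, 108 and 172 in PLEA and at 522, 149 and 162 in saline. PLEA 1 was thus above Saline 2 and 3, and the log2 fold change of Ctsd was -0.47 (SE 0.54). Ctsb, at -0.19 (SE 0.25), shares 774 exon bases with the opposite-strand gene Fdft1 in GENCODE M21, and reads of these genes cannot be told apart without strand.

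The other proteases were Ctsl, Ctsz and Lgmn. Lgmn, the asparagine-specific protease legumain, was at 140, 64.9 and 102 CPM in PLEA and at 249, 120 and 107 CPM in saline, with a log2 fold change of -0.63 (SE 0.36). Its PLEA 1 value lay above Saline 2 and 3, so the groups overlapped, and without Saline 1 the value was -0.14. Ctsl, the cysteine protease cathepsin L, was at -0.53 (SE 0.35) on that scale, and Ctsz, a carboxypeptidase, was at -0.41 (SE 0.47). For Ctsz the range was 26.1 to 63.7 CPM in PLEA and 31.7 to 101 CPM in saline.

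Lyz2, the lysozyme that cuts bacterial cell walls and a marker of macrophages and neutrophils, had the largest fold change of the lysosomal group. It was at 16.8, 3.91 and 7.66 CPM in PLEA 1 to 3, and at 81.3, 9.42 and 16.1 CPM in Saline 1 to 3. PLEA 1 was just above Saline 3, and the other PLEA libraries were below the saline range. The log2 fold change was -1.92 (SE 0.81, unadjusted p = 0.0446, adjusted p = 0.818 in edgeR), it was -0.42 (SE 0.53) without Saline 1, and it was -1.13 (adjusted p = 0.525 in edgeR) without PLEA 1 and Saline 1 together. Its paralog Lyz1, 95.8% identical over 1264 bases, had at most 3 counts in a library. In the deposited table Lyz2 spans bases 117113236 to 117118226 of chromosome 10, minus strand.

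The membrane proteins, glycosidases and soluble factors had smaller fold changes. Lamp1, a heavily glycosylated protein of the lysosomal membrane, was at 278, 244 and 253 CPM in PLEA and at 346, 291 and 271 CPM in saline, a narrow range in which PLEA 1 exceeded only Saline 3. Its log2 fold change was -0.23 (SE 0.13), and Lamp2, its relative needed for autophagy, had -0.28 (SE 0.17). Hexa, a subunit of beta-hexosaminidase, had -0.37 (SE 0.32) and Gusb, beta-glucuronidase, had -0.38 (SE 0.48), against -0.013 for Hexa and 0.34 for Gusb without Saline 1. Npc2, the cholesterol carrier of the lysosome lumen, had -0.45 (SE 0.24), or -0.13 without Saline 1, and Grn, the precursor of granulins that support lysosomal enzymes, had -0.50 (SE 0.41).

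Cd68 and Cd63 are membrane proteins of late endosomes and lysosomes, and Cd68 is a common stain for phagocytes. Cd68 was at 35.8, 12.6 and 21.7 CPM in PLEA 1 to 3, and at 67.9, 11.0 and 15.3 CPM in Saline 1 to 3. Each PLEA library lay above Saline 2 and below Saline 1, and the log2 fold change of -0.43 (SE 0.66) turned to 0.84 without Saline 1. Cd63 ranged from 13.8 to 52.1 CPM in PLEA and from 29.1 to 80.1 CPM in saline, with -0.46 (SE 0.51). Its pseudogene Cd63-ps, 98.0% identical over 858 bases, had up to 147 counts in a library, so some reads may have been split between them.

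Among 44 other lysosomal genes, 42 were tested, 0 passed in either direction and the median log2 fold change was -0.09. Their summed level was even across libraries, at 6024 to 6423 CPM in PLEA and at 6139 to 6618 CPM in saline. Ctss, a cathepsin of myeloid cells, showed a log2 fold change of -1.04 (SE 0.50), with 43.2 CPM in PLEA and 88.6 CPM in saline on average. Laptm4a, a lysosomal membrane protein, had -0.33 (SE 0.12), and Mitf, a relative of TFEB, had -0.41 (SE 0.18).

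Apoe, the apolipoprotein that carries cholesterol between brain cells, had the highest level per length of the 35 genes. It was at 1275 ± 75.8 TPM in PLEA and 1506 ± 304 TPM in saline (SD, n = 3 each). On the CPM scale it was at 686, 613 and 650 in PLEA and at 1038, 658 and 770 in saline. PLEA 1 was above Saline 2, so the groups overlapped, and the log2 fold change was -0.34 (SE 0.18, adjusted p = 0.818 in edgeR), or -0.13 without Saline 1. In the deposited table Apoe spans bases 19430034 to 19433113 of chromosome 7, minus strand.

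The cholesterol exporters Abca1 and Abcg1, both known targets of the sterol-sensing LXR receptors, differed from each other. Abca1, which loads lipid onto apolipoproteins, was at 92.2, 48.3 and 70.2 CPM in PLEA and at 157, 73.3 and 78.8 CPM in saline. It was high in Saline 1 and PLEA 1, with a log2 fold change of -0.55 (SE 0.33), or -0.10 without Saline 1. Abcg1, which loads lipid onto formed lipoproteins, was at 78.1, 92.7 and 84.3 CPM in PLEA and at 80.7, 88.6 and 92.3 CPM in saline. Abcg1 was the most even of the 35 genes, with a highest-to-lowest ratio of 1.19, and its log2 fold change was -0.04 (SE 0.12). PLEA 1 was its lowest library and PLEA 2 its highest.

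Plin2, which coats lipid droplets, was at 10.7, 3.40 and 7.27 CPM in PLEA 1 to 3, and at 33.8, 3.81 and 4.37 CPM in Saline 1 to 3. Saline 1 stood alone, while PLEA 1 and 3 lay above Saline 2 and 3. The log2 fold change of -0.98 (SE 0.81) turned to 0.81 without Saline 1. Fabp5, a fatty acid carrier, had -0.46 (SE 0.28), or -0.014 without Saline 1, and Lipa, the lysosomal acid lipase that splits cholesteryl esters, had -0.42 (SE 0.25).

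Ch25h, the enzyme that makes 25-hydroxycholesterol, was low, with 33, 9 and 13 counts in PLEA and 49, 22 and 10 counts in saline. It overlaps 159 exon bases of the opposite-strand gene Gm26902, which had up to 35 counts in a library, so its value is uncertain without strand. Among 36 other genes of lipid transport and synthesis, 33 were tested and 0 passed. The 36 summed to 4024 to 4750 CPM in PLEA and to 4935 to 5142 CPM in saline, without overlap. An exact two-sided permutation test of this sum gave p = 0.1 without adjustment, the smallest that 3 against 3 libraries allow. The same test was run on the sum of each gene list and marker list. It also gave 0.1 for the monocyte and macrophage markers and for the meninges markers. A negative log2 fold change was found for 24 of the 33, against 51.0% of all genes tested, and the median was -0.16. Scd2, a fatty acid desaturase, had -0.30 (SE 0.15), Cd36, a scavenger receptor for oxidised lipoproteins, had -0.92 (SE 0.47) and Dgat1, an enzyme of triglyceride synthesis, had 0.26 (SE 0.13).

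Mrc1, the mannose receptor of border-associated and alternatively activated macrophages, had the smallest p of the 31 tested genes. It was at 8.38, 3.29 and 5.20 CPM in PLEA 1 to 3, and at 15.1, 7.17 and 12.5 CPM in Saline 1 to 3. PLEA 1 was above Saline 2, and the other PLEA libraries were below all saline libraries. The log2 fold change was -1.04 (SE 0.38, unadjusted p = 0.0252, adjusted p = 0.818 in edgeR). Unlike the lysosomal genes, Mrc1 was high in Saline 3 as well as Saline 1, and without Saline 1 and PLEA 1 together it was at -1.20 (SE 0.36, adjusted p = 0.515 in edgeR). Mrc1 spans bases 14234203 to 14336868 of chromosome 2, plus strand, in the deposited table.

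Of 8 border macrophage markers 5 were tested. All 5 had negative log2 fold changes, against 51.0% of all genes tested, and 2 were lower without overlap, against 5.54%. The list summed to 19.5 to 72.2 CPM in PLEA and to 29.8 to 135 CPM in saline, with overlap. The 2 with the smallest p, Cbr2 and F13a1, a clot-stabilising factor subunit, were at -1.74 (SE 0.62) and -1.08 (SE 0.41) on the log2 fold change scale. Both were lower in each PLEA library than in any saline library, with adjusted p = 0.818 in edgeR. Cbr2 was low, at 0.474 CPM in PLEA and 1.60 CPM in saline on average. The haemoglobin scavenger receptor Cd163, also known from border macrophages, did not follow Mrc1. It was at 5.72, 6.80 and 5.98 CPM in PLEA and at 7.92, 3.93 and 8.25 CPM in saline, with the lowest value in Saline 2 and a log2 fold change of -0.12 (SE 0.30).

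Msr1, the class A scavenger receptor for modified lipoproteins, varied most of the 35 genes. It was at 9.94, 1.64 and 8.38 CPM in PLEA 1 to 3, and at 21.1, 0.231 and 0.800 CPM in Saline 1 to 3. The 3 PLEA libraries lay above Saline 2 and 3 and below Saline 1. Msr1 counts were 172, 29 and 150 in PLEA 1 to 3 and 360, 4 and 13 in Saline 1 to 3, so the low libraries held few reads. The log2 fold change was -0.15 (SE 1.25) over all libraries, 1.64 by limma voom, and 3.70 (SE 0.87, adjusted p = 0.827 in edgeR) without Saline 1. Without PLEA 1 and Saline 1 together it was 3.29 (SE 0.89, adjusted p = 0.515 in edgeR), in a fit where an unadjusted p under 0.05 was reached by 4.4% of all genes in the higher and 4.34% in the lower direction, and 0.0% were higher and 0.0056% lower after adjustment. In the deposited table Msr1 spans bases 40034726 to 40095714 of chromosome 8, minus strand.

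**Figure D4:**
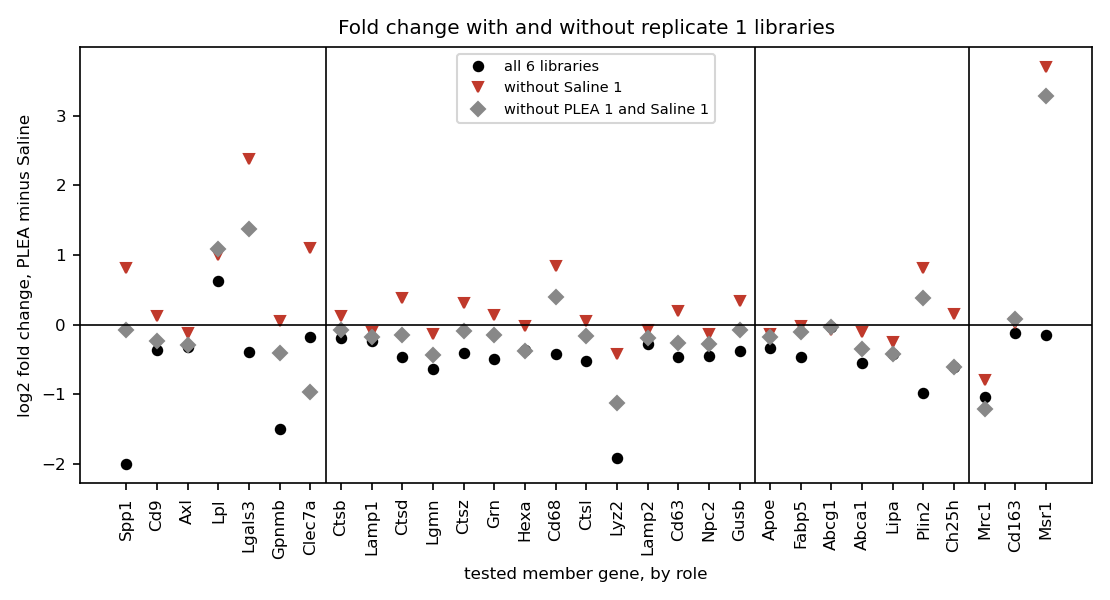
Log2 fold change of PLEA over saline for each tested gene (edgeR) with all 6 libraries (black circles), without Saline 1 (red triangles) and without PLEA 1 and Saline 1 together (grey diamonds). Without Saline 1 the points shift upward for all genes but Abcg1, across 0 for 17 of 31 (8 of 14 lysosomal ones), and furthest for Msr1, Spp1 and Lgals3.

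Arg1, the arginase of alternatively activated macrophages, and Ms4a7, a membrane protein of monocyte-derived and border macrophages, did not pass the filter. Arg1 had 5, 3 and 5 counts in PLEA 1 to 3 and 61, 6 and 13 counts in Saline 1 to 3. Ms4a7 had 6, 3 and 3 counts in PLEA and 44, 13 and 8 in saline. The PLEA libraries were below all saline libraries for both genes, at counts where a handful of reads sets the order. For Arg1 it rests on 5 counts in PLEA 1 and PLEA 3 against 6 in Saline 2. Among the genes tested 5.54% were lower without overlap, and no such share was taken for genes below the filter. With no filter on low counts, edgeR gave adjusted p = 0.182 for Arg1 and 0.214 for Ms4a7, in a fit that called 0.0205% of its genes higher and 0.0907% lower.

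Among 31 other genes of phagocytosis, 28 were tested and 0 passed. Negative log2 fold changes were found for 24, against 51.0% of all genes tested, with a median of -0.53. Colec12, a scavenger receptor of vessel and stromal cells, averaged 11.6 CPM in PLEA and 19.4 CPM in saline, without overlap, and had -0.74 (SE 0.19, adjusted p = 0.818 in edgeR). The Fc receptor gene Fcgr2b had -1.26 (SE 0.68), the complement receptor subunit Itgam, also among the pan-myeloid markers, -1.32 (SE 0.71) and Cd93 -0.70 (SE 0.42). Fcgr2b, Itgam and Cd93 were highest in Saline 1, and Colec12 in Saline 3.

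The genes were also set against the pan-myeloid marker sum. The ratio is the gene's CPM per 100 CPM of the 10 markers in the same library, so it also moves with the markers and with other cells that express the gene. Its mean was higher in PLEA for 27 of the 31 tested genes, which is 87.1%, against 95.3% of all genes tested, and the marker sum itself averaged 154 CPM in PLEA and 269 CPM in saline. For 5 of the 31 the ratio was higher in each PLEA library than in any saline library, against 2.78% of all genes tested, and for 0 it was lower, against 0.227%.

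The 5 genes were Cd68, Ctsd, Ctsz, Grn and Gusb, all lysosomal. For Cd68, Grn and Gusb the lowest PLEA ratio was just above the highest saline ratio. These ratios were 14.5 against 14.1 for Cd68, 45.6 against 43.5 for Grn and 12.6 against 12.2 for Gusb. Ctsd was at 140, 132 and 114 per 100 marker CPM in PLEA 1 to 3, and at 108, 102 and 90.6 in Saline 1 to 3. Ctsz was at 27.6, 31.9 and 26.3 in PLEA and at 21.0, 21.7 and 21.2 in saline. Both genes varied less between libraries as ratios than as levels, and 3 against 3 libraries allow no exact permutation p below 0.1.

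Arg1 and Ms4a7 were lower relative to the markers. Arg1 was at 0.125, 0.208 and 0.186 per 100 marker CPM in PLEA and at 0.741, 0.237 and 0.446 in saline, and Ms4a7 was at 0.150, 0.208 and 0.112 in PLEA and at 0.534, 0.514 and 0.275 in saline. Both were without overlap, at a few reads per PLEA library. The share of 0.227% lower without overlap covers tested genes only, and neither gene passed the filter. Lyz2 averaged 5.72 ± 1.35 in PLEA and 10.7 ± 5.42 in saline (SD, n = 3 each), with overlap.

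Msr1, Lgals3 and Spp1 kept a wide spread on this scale. Msr1 was at 4.31, 2.01 and 5.58 per 100 marker CPM in PLEA and at 4.37, 0.158 and 0.446 in saline, so that Saline 1 lay within the PLEA range and Saline 2 and 3 below it. Lgals3 was at 4.03, 0.763 and 2.68 in PLEA and at 3.41, 0.317 and 0.755 in saline, and Spp1 was at 36.7, 10.5 and 26.3 in PLEA and at 98.7, 21.8 and 10.6 in saline. For Apoe, Ctsb, Lamp1 and Abcg1 the ratio was highest in PLEA 2, the library with the lowest marker sum.

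**Figure D5:**
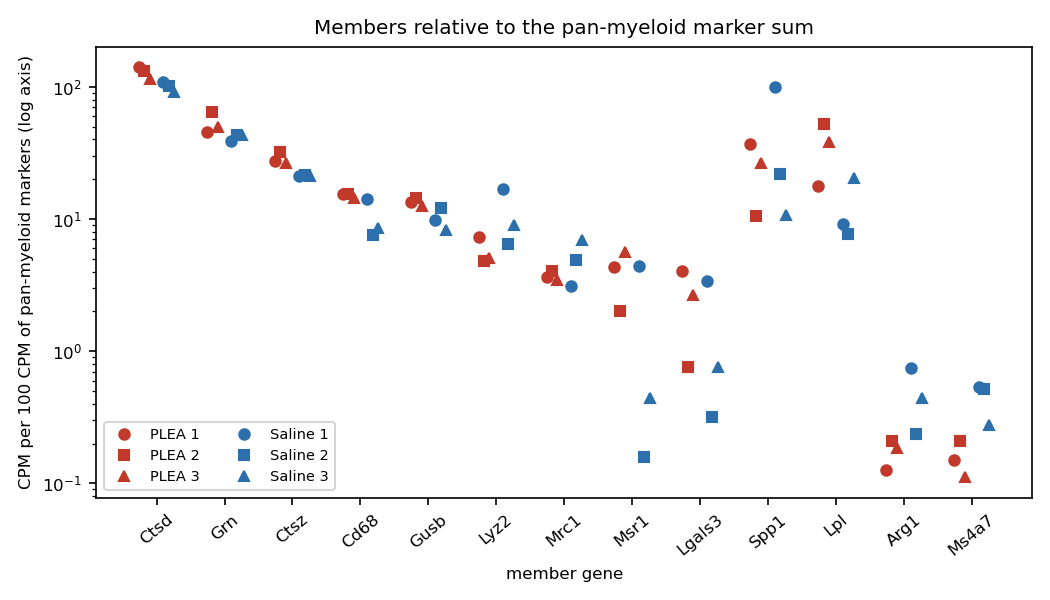
CPM per 100 CPM of the pan-myeloid markers (log axis) for 13 of the genes in each library, with red points for PLEA and blue for saline and a symbol for each replicate number. Ctsd, Grn, Ctsz, Cd68 and Gusb lie higher in each PLEA library than in any saline library. Arg1 and Ms4a7, which did not pass the filter on low counts, lie lower. Msr1, Lgals3 and Spp1 spread widely within each group.

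By level per length, the 35 genes covered a wide range. After Apoe came Ctsb, Lamp1 and Ctsd, with means over all libraries of 457, 425 and 408 TPM, which differed by less than their spread. Spp1 was next at 261 TPM, a mean set by Saline 1. Lgmn, Ctsz and Grn were at 226, 140 and 108 TPM, and the lowest were Itgax at 0.535 TPM, Ms4a7 at 0.663 TPM and Arg1 at 1.59 TPM. Several genes that define the phagocyte state (Cst7, Itgax, Clec7a) were thus measured from few reads.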

How the data were processed

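Per the labels' protocols, libraries were made from 1.3 µg of RNeasy-purified RNA with a SMARTer mRNA kit. The authors deposited raw read counts per gene for 6 libraries, with gene length in bases (another column, used only for TPM). Builds GRCm38 and mm10 appear in the submitters' processing notes, whereas no source used here gives the aligner, counter or strandedness. Coordinates of 1 of 35 genes matched GENCODE M21 (GRCm38), so gene spans are printed as deposited, with no build.

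The test was the quasi-likelihood F test of edgeR 4.0.16 (R 4.3.3) on group alone, after filterByExpr and TMM scaling, with Benjamini-Hochberg adjustment over 17584 genes at 0.05. The SE of a log2 fold change is its size divided by the square root of F. The procedure was tested on simulated data. Alternatives were DESeq2 1.42.0, limma 3.58.1 (voom), RLE and upper-quartile factors, no filter, CPM of at least 1 in 3 libraries, a replicate block and leaving out each library. Sums were tested by exact permutation of libraries. Copies were found with BLASTN 2.17.0 among GENCODE M21 transcripts (95% identity, 100 bases) and shared exons with bedtools 2.31.1. No library pair agreed within sampling noise (smallest chi-square per degree of freedom 13.1). All 35 genes and, from each list, up to 4 genes with the smallest p could be named. Ccr2 and Ly6g were picked after their values were seen. The genes and lists were chosen with earlier results of these data known.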

Additional observations from a re-analysis of the deposited data

How the results depend on the processing

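Of the 31 tested genes, 0 passed in any of the 14 other fits, and 31 kept their sign with DESeq2, RLE or upper-quartile factors, no filter and the stricter CPM filter. Genes called higher and lower over the whole table numbered 3 and 36 with DESeq2 and 7 and 31 without a filter, against 0 and 0 with edgeR as described. For all changes here the cause was not tested. Dropping 1 library, or PLEA 1 and Saline 1 together (chosen after seeing the data), gave 0 to 1 genes lower. The sign turned for Lgals3 (0.37 with voom and 0.24 with the replicate block) and Msr1 (1.64 and 1.19). No label pairs the replicate numbers, and 3 libraries per group cannot decide whether same-numbered libraries share an origin. Same-numbered deviations correlated at 0.373 (the highest of all pairs), 0.173 and -0.0176, and PLEA 2 correlated best with Saline 3. The replicate block called 0 genes. At p under 0.05 before adjustment, 1 of the 31 genes was higher (Lpl) and 10 lower with the block, against 2.70% and 5.07% of all genes. Without a filter 1 was higher (Lpl) and 9 lower, against 2.24% and 3.95%. Ranges over left-out libraries, with the high end without Saline 1 unless named, were -0.80 to 0.049 for the median of the 31 genes, -1.42 to 0.81 for the phagocyte-state, -0.81 to 0.086 for the lysosomal, -0.67 to -0.081 for the lipid-handling and -0.74 to 0.079 (high end without both) for the scavenger-receptor median, -2.90 to 0.81 for Spp1, -2.01 to 0.049 for Gpnmb, -2.26 to 1.10 for Clec7a, -1.42 to 2.37 for Lgals3, -0.73 to 0.12 for Cd9, -0.93 to 0.20 for Cd63, -0.90 to 0.84 for Cd68, -0.40 to 0.12 for Ctsb, -1.02 to 0.38 for Ctsd, -0.77 to 0.048 for Ctsl, -0.82 to 0.32 for Ctsz, -0.80 to 0.15 for Grn, -0.82 to 0.34 for Gusb, -1.37 to 0.15 for Ch25h, -1.44 to 0.81 for Plin2, -0.74 to 3.70 for Msr1, -0.10 to 0.012 for Abcg1 (high end without PLEA 1) and -0.40 to 0.079 for Cd163 (high end without both). Summed CPM, PLEA minus saline, ranged from -1322 to 51.6 for the 35 genes, -246 to 44.9 for phagocyte-state, -736 to 81.7 for lysosomal and -17.6 to 1.29 for scavenger-receptor genes. Cst7, Itgax, Arg1 and Ms4a7 are limited by depth, with at most 61 counts in a library. Msr1, Lgals3 and Clec7a also had few counts in their lowest libraries, at 4, 8 and 2.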
